A study of Rattus norvegicus with 16 samples.

Results

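rno_circRNA_012088 and rno_circRNA_012089 are circular RNAs (circRNAs) that share the host gene Mkln1, and they were measured here in the lumbar spinal cord of morphine-tolerant rats (MT group) and of rats given saline (NS group). They are read by the probes ASCRPR000693 and ASCRPR001233, which are 2 of the 14145 circRNA probes on the array. The members were chosen because the study lists both among its most hypermethylated circRNAs in the MT group, so that they were selected on the IP values of these rats, and every difference between the groups given here is a description without a test. The names were paired with the probes through that listed change, and the other details of the listing are not used. Each group held 4 adult male SD rats. The MT rats were given 10 μg of morphine hydrochloride in 10 μl through an intrathecal tube each morning and each evening for 7 days, while the NS rats were given 10 μl of normal saline on the same schedule. The cords were taken on the morning after these 7 days, 1 h after a further injection of morphine or saline. Effects of that last injection and of the earlier ones therefore cannot be told apart. Neither group included females, and no group received a single dose of morphine. Of the total RNA of each cord, an antibody against N6-methyladenosine (m6A) precipitated the modified fraction (IP), and the rest stayed in the supernatant (SUP). Both fractions were treated with RNase R, which digests linear RNA, and were hybridized together to 1 array per rat, IP in Cy5 and SUP in Cy3, without a dye swap.

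A circRNA forms when the end of an exon is joined back to the start of the same or an earlier exon, which leaves a closed ring without free ends, and such rings are common in neural tissue. m6A is added to RNA by writers such as METTL3 and METTL14, removed by erasers such as FTO and ALKBH5, and bound by readers of the YTH family. The linear Mkln1 transcript encodes muskelin, a kelch-repeat protein that belongs to the CTLH ubiquitin ligase complex and that, in neurons, takes part in the transport of GABA-A receptors. The arrays hold circRNA probes, and the linear Mkln1 messenger RNA was not analysed here.

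rno_circRNA_012088 is also the Mkln1 circRNA for which the study designed PCR primers, which are shown because they are the sequences by which the same molecule can be followed outside the array. Both primers have 20 bases, and G or C make up 55% of the forward and 50% of the reverse primer. They are written from 5′ to 3′, with no base singled out in capitals.
Forward primer of rno_circRNA_012088: ttgtttggtggctgggatgg
Reverse primer of rno_circRNA_012088: agcaggcctttcaagcttca

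Both circRNAs were brighter in SUP than in IP in every rat, and their IP lay below the median circRNA probe of the array in all 8 rats. In SUP, the processed intensity of rno_circRNA_012088 was 3962, 1209, 1423 and 809 for MT replicates 1 to 4, against 689, 796, 313 and 307 for NS replicates 1 to 4. In IP it was 168, 124, 165 and 67.6 in the MT rats and 63.0, 48.3, 67.8 and 37.4 in the NS rats, in the same order. For rno_circRNA_012089 the processed intensity in SUP was 2239, 769, 906 and 442 in the MT rats and 445, 500, 212 and 233 in the NS rats. Its IP was 343, 149, 193 and 90.3 in the MT rats and 102, 89.5, 44.2 and 40.8 in the NS rats. SUP lay above the median circRNA probe in all 4 MT rats for both circRNAs, and in 2 of the 4 NS rats for rno_circRNA_012088 and 1 for rno_circRNA_012089. SUP was well above background on all 8 arrays for both circRNAs. IP was well above background on all 4 MT arrays but on only 3 of the 4 NS arrays, with NS replicate 4 as the exception for both. No spot of either circRNA was saturated or marked as an outlier, and each circRNA has 1 spot per array. The error that the scanner software assigned to the processed signal was between 10.6% and 23.9% of the signal in IP, with the highest value in NS replicate 4, and between 10.0% and 10.9% in SUP.

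Across the series, the median processed intensity of the circRNA probes was between 295 and 522 in IP and between 314 and 559 in SUP, and MT replicate 4 was lowest in both. The slide holds the MT arrays side by side in its first row and the NS arrays in the next, so that position and group cannot be told apart. Intensities were normalized in each array and channel with the 102 named spike-in probes, and all log2 values below are on that scale unless another is named. The m6A quantity is the normalized IP intensity, the m6A level is the percentage that IP makes up of IP plus SUP together, and expression is their sum. Whether more RNA per cell or more cells that hold the RNA lie behind a higher intensity cannot be told apart in whole cord tissue.

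**Figure D1:**
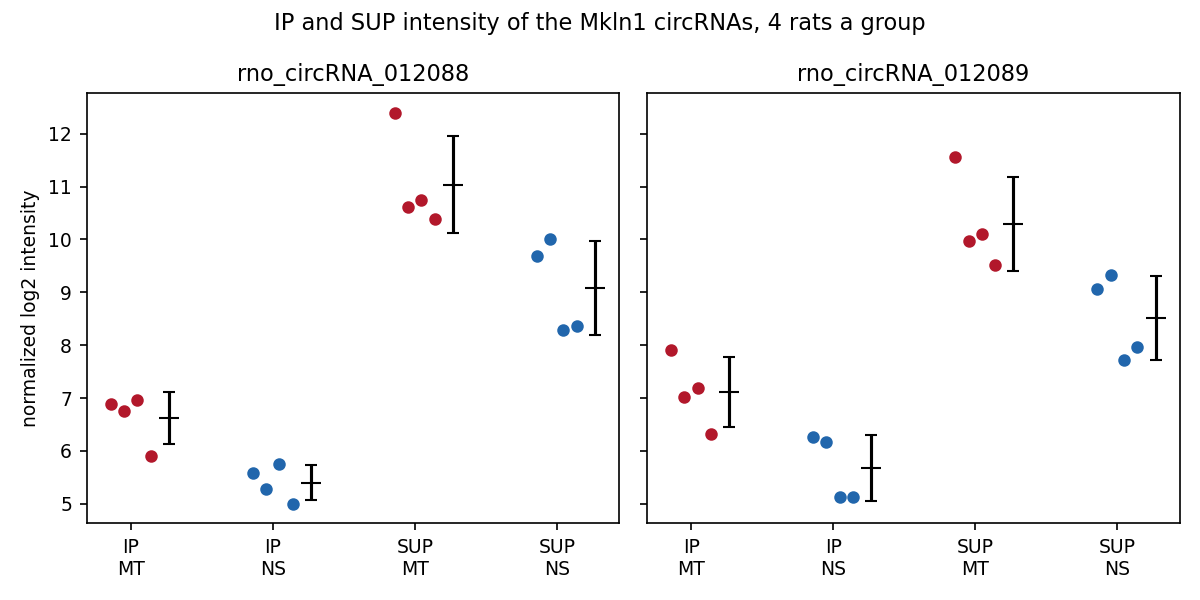
Normalized log2 intensity (y axis) of rno_circRNA_012088 and rno_circRNA_012089 in the IP and SUP fractions of the MT and NS groups. Each point is 1 of 4 rats, with the mean and SD in black, and in both fractions of both circRNAs every MT rat lies above every NS rat.

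The m6A quantity of both circRNAs was higher in every MT rat than in every NS rat, and this is the measure on which they were listed. The log2 m6A quantity of rno_circRNA_012088 was 6.88, 6.76, 6.97 and 5.90 for MT replicates 1 to 4, against 5.58, 5.28, 5.75 and 5.004 for NS replicates 1 to 4. MT replicate 4 stood lowest in its group, close above the highest NS rat. The mean was 6.63 ± 0.49 (SD, n = 4) over the MT rats against 5.40 ± 0.33 (SD, n = 4) over the NS rats, a difference of 1.23 log2 (standard error 0.30) or 2.34-fold. The log2 m6A quantity of rno_circRNA_012089 was 7.92, 7.03, 7.19 and 6.32 in the MT rats and 6.27, 6.17, 5.13 and 5.13 in the NS rats. The groups nearly touched, with MT replicate 4 just above NS replicate 1. The mean was 7.12 ± 0.65 (SD, n = 4) over the MT rats against 5.68 ± 0.63 (SD, n = 4) over the NS rats, a difference of 1.44 log2 (standard error 0.45) or 2.71-fold. Among the 12893 circRNAs whose IP was well above background in 4 or more of the arrays, the differences of rno_circRNA_012088 and rno_circRNA_012089 ranked 23 and 9 from the highest. A rise of at least 1.5-fold was present in 3.93% of these circRNAs, and all MT rats lay above all NS rats in 2.73%. The criterion of the study, a rise of at least 1.5-fold with an unadjusted P under 0.05, was met by 1.67% in limma over all of them. That share comes from the scale and the test used here and is not the study's own count. These shares are background to the choice of the pair and nothing is read from them.

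The IP signals of most rats were below or close to the local background in size. After background subtraction alone, the IP brightness of rno_circRNA_012088 was 13.7, 13.1, 19.5 and 7.41 units in the MT rats and 5.70, 5.03, 8.06 and 4.60 in the NS rats, where the local background itself was between 15 and 17 units. That of rno_circRNA_012089 was 27.8, 15.8, 22.2 and 9.496 units in the MT rats and 9.56, 9.43, 5.26 and 4.93 in the NS rats, with a local background between 14 and 19 units. It was above the local background in MT replicates 1 and 3, and for rno_circRNA_012088 in MT replicate 3 alone. When the background was instead corrected from the median spot signal with normexp and an offset of 50, the difference in the m6A quantity was 0.33 log2 for rno_circRNA_012088 and 0.38 log2 for rno_circRNA_012089, both under 1.5-fold. The offset was larger than each background-subtracted IP value above, and adding a constant makes log2 differences between dim signals smaller. In NS replicate 4, where neither spot was well above background, the processed IP of 37.4 and 40.8 lay beside 39.2, the lowest value among the circRNAs well above background on that array. Leaving out NS replicate 4 gave differences of 1.09 and 1.26 log2.

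On average, the unmodified fraction differed between the groups by more than the modified one. The log2 SUP intensity of rno_circRNA_012088 was 12.39, 10.62, 10.75 and 10.39 for MT replicates 1 to 4, against 9.68, 10.00, 8.29 and 8.36 for NS replicates 1 to 4. MT replicate 1 stood far above the other MT rats, and NS replicates 3 and 4 lay together below NS replicates 1 and 2. The mean was 11.04 ± 0.91 (SD, n = 4) over the MT rats against 9.08 ± 0.89 (SD, n = 4) over the NS rats, a difference of 1.95 log2 (standard error 0.64) or 3.87-fold. The log2 SUP intensity of rno_circRNA_012089 was 11.57, 9.97, 10.10 and 9.51 in the MT rats and 9.05, 9.33, 7.73 and 7.96 in the NS rats. The same rats stood at the top and at the bottom. The mean was 10.29 ± 0.89 (SD, n = 4) over the MT rats against 8.52 ± 0.79 (SD, n = 4) over the NS rats, a difference of 1.77 log2 (standard error 0.60) or 3.41-fold. Without MT replicate 1 the differences in SUP were 1.501 and 1.34 log2, and with normexp correction they were 1.27 and 1.03 log2.

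On the spike-in scale, SUP was higher in the MT group for the median circRNA too. Of the 13347 circRNAs whose SUP was well above background in 4 or more of the arrays, 29.6% were at least 1.5-fold higher in the MT group, and all MT rats lay above all NS rats in 11%. The median difference over these circRNAs was 0.28 log2 in SUP, and over the 12893 circRNAs of the IP comparison it was 0.01 log2 in IP. Relative to that median, the difference in SUP was 1.67 log2 for rno_circRNA_012088 and 1.49 log2 for rno_circRNA_012089. In the deposited values the median difference was lower, at 0.11 log2 in SUP and −0.15 log2 in IP, and the differences of the pair in SUP were 1.80 and 1.62 log2. When the channels were brought to a common level (75th percentile, quantile, loess and Aquantile, or median), the median difference in SUP was between −0.11 and −0.02 log2, while the differences of the pair were between 1.55 and 1.65 log2 for rno_circRNA_012088 and between 1.36 and 1.47 log2 for rno_circRNA_012089. The Mkln1 circRNAs ranked 30 and 69 from the highest difference in SUP.

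**Figure D2:**
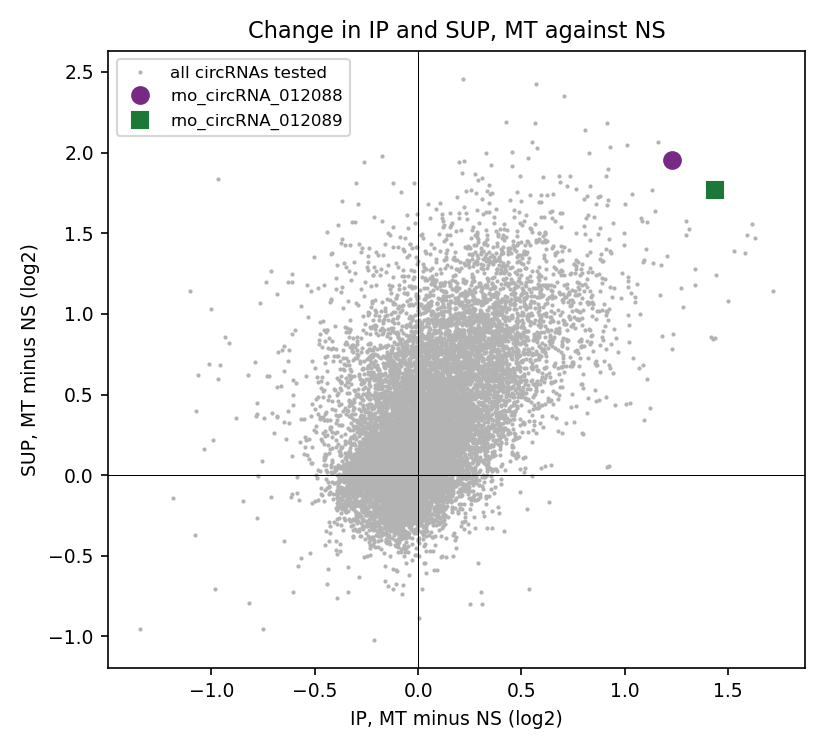
Difference between the MT and NS group means in IP (x axis, log2) and in SUP (y axis, log2) for the 12669 circRNAs measured in both fractions, with the Mkln1 circRNAs in colour. rno_circRNA_012088 lies at 1.23 and 1.95 and rno_circRNA_012089 at 1.44 and 1.77, toward the upper right edge of the cloud.

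Expression, the log2 sum of IP and SUP, followed SUP because IP added little to it. For rno_circRNA_012088 it was 12.42, 10.72, 10.85 and 10.45 in the MT rats and 9.77, 10.06, 8.52 and 8.49 in the NS rats. The groups did not overlap, and the difference was 1.90 log2 (standard error 0.61) or 3.73-fold. For rno_circRNA_012089 it was 11.68, 10.15, 10.28 and 9.66 in the MT rats and 9.25, 9.48, 7.95 and 8.15 in the NS rats. The groups were again separate, with a difference of 1.73 log2 (standard error 0.58) or 3.33-fold. With normexp correction the differences in expression were 1.096 and 0.88 log2. Of the 12669 circRNAs measured in both fractions, 18.4% were raised by at least 1.5-fold in expression, and all MT rats lay above all NS rats in 8.83%. In the order of the differences, rno_circRNA_012088 ranked 6 and rno_circRNA_012089 ranked 12 from the highest.

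The m6A level, in contrast, did not separate the groups for either circRNA. The m6A level of rno_circRNA_012088 was 2.15%, 6.45%, 6.78% and 4.29% for MT replicates 1 to 4, against 5.48%, 3.65%, 14.7% and 8.91% for NS replicates 1 to 4. The lowest value belonged to MT replicate 1 and the highest to NS replicate 3, and in between the rats of both groups were mixed. The mean was 4.92% ± 2.15 (SD, n = 4) over the MT rats against 8.18% ± 4.84 (SD, n = 4) over the NS rats, a difference of −3.26 percentage points (standard error 2.65). A single rat carried most of it, since the difference was −1.10 percentage points without NS replicate 3. The m6A level of rno_circRNA_012089 was 7.38%, 11.5%, 11.8% and 9.88% in the MT rats and 12.7%, 10.1%, 14.2% and 12.3% in the NS rats. NS replicate 2 lay below MT replicates 2 and 3, so that the groups overlapped here too. The mean was 10.1% ± 2.03 (SD, n = 4) over the MT rats against 12.3% ± 1.71 (SD, n = 4) over the NS rats, a difference of −2.19 percentage points (standard error 1.33). Without MT replicate 1 it was −1.26 percentage points.

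The size of the difference in level depended on the processing in both directions. With normexp correction it was −9.35 percentage points for rno_circRNA_012088, with group means of 14.9% in the MT and 24.3% in the NS rats, and −8.00 for rno_circRNA_012089, with means of 21.1% and 29.1%. With the channels scaled to equal 75th percentiles across arrays it was −2.96 and −0.66 percentage points, and with quantile normalization −2.86 and −0.23. The groups overlapped for both circRNAs under every way of processing, normexp included.

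A lower mean level in the MT group was shared by 76.1% of the 12669 circRNAs, but by only 39.6% to 47.1% when the channels were brought to a common level (75th percentile, quantile, loess and Aquantile, or median). The level was lowered by at least 1.5-fold in 8.96% of them, and all MT rats lay below all NS rats in 8.76%. As a ratio of group means, the level of rno_circRNA_012088 was 1.66-fold lower in the MT group and that of rno_circRNA_012089 1.22-fold lower. On the scale of log2(IP/SUP), the difference was −0.73 for rno_circRNA_012088 and −0.33 for rno_circRNA_012089, where the median circRNA stood at −0.23. The shift of rno_circRNA_012089 thus differed from that of the median circRNA by −0.10 log2 and that of rno_circRNA_012088 by −0.49 log2, against standard errors of 0.21 and 0.62.

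**Figure D3:**
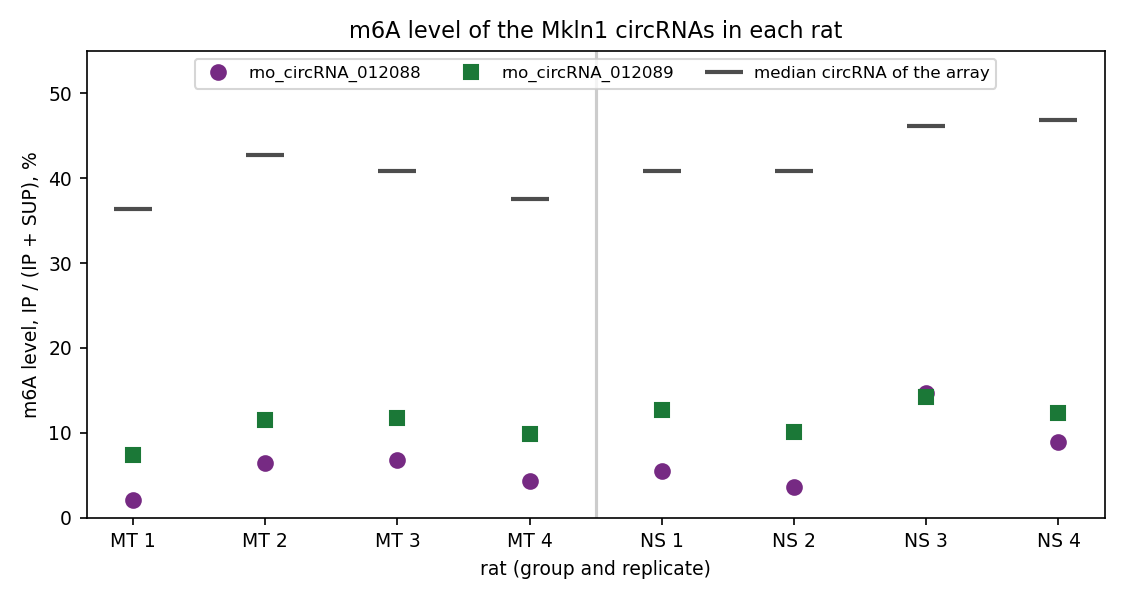
m6A level, IP as a percentage of IP plus SUP (y axis), in each of the 8 rats (x axis) for rno_circRNA_012088, for rno_circRNA_012089 and for the median of the circRNAs measured in both fractions. Both Mkln1 circRNAs lie under 15% in every rat, while the median lies between 36.4% and 46.8%, and rno_circRNA_012088 is below rno_circRNA_012089 in all rats except NS replicate 3.

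The share of each circRNA in the modified fraction was also described over all 8 rats. It reuses the IP values on which the pair was selected, so it is given without a test. Here log2(IP/SUP) was taken relative to the median circRNA of the same array, so that any scaling of a whole array or channel cancels. Both Mkln1 circRNAs lay far below the median circRNA. For rno_circRNA_012088 the relative value was −4.70, −3.44, −3.25 and −3.75 log2 in the MT rats and −3.57, −4.19, −2.31 and −3.17 log2 in the NS rats. For rno_circRNA_012089 it was −2.85, −2.52, −2.37 and −2.46 log2 in the MT rats and −2.25, −2.62, −2.37 and −2.65 log2 in the NS rats. All 8 rats were below 0 for both circRNAs, as was so for 33.4% of the circRNAs. The mean over both groups was −3.55 log2 (standard error 0.22) for rno_circRNA_012088, or 11.7-fold below the median circRNA. For rno_circRNA_012089 the mean was −2.51 log2 (standard error 0.08), or 5.70-fold below.

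Such low values were common among circRNAs with raised IP. Of the 495 circRNAs measured in both fractions whose IP was at least 1.5-fold higher in the MT group, 91.5% had a mean below the median circRNA, against 49.6% of all 12669. The median of the 495 was −2.29 log2, with quartiles at −3.20 and −1.29. Of them, 95 lay below rno_circRNA_012088 and 217 below rno_circRNA_012089, so that the position of the pair is not particular to it. Among all 12669 circRNAs, counted from the lowest, rno_circRNA_012088 ranked 247 and rno_circRNA_012089 ranked 808. Since no dyes were swapped, a difference in how Cy5 and Cy3 label a given probe cannot be told apart from its share in IP. With the median spot signal and normexp correction the means were −1.63 and −1.11 log2, still below the median circRNA.

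The measured ratio of IP to SUP was lower for the probe of rno_circRNA_012088 than for that of rno_circRNA_012089 in most rats. Within each rat, its log2(IP/SUP) less that of rno_circRNA_012089 was −1.86, −0.92, −0.87 and −1.29 for MT replicates 1 to 4, against −1.33, −1.56, 0.05 and −0.53 for NS replicates 1 to 4. The value was below 0 in 7 of the 8 rats, the exception being NS replicate 3, where both had nearly the same ratio. The mean was −1.04 ± 0.61 (SD, n = 8). With normexp correction it was −0.52, and without any single rat it was between −1.19 and −0.92. The values come from different probes in the same dyes, so that a fixed difference between the probes in labeling or in dim signal cannot be told apart from a difference in share, and no test is given.

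The pair moved together from rat to rat in SUP. Ordered by SUP from high to low, the rats stood in the same order for both, with MT replicates 1, 3, 2 and 4 followed by NS replicates 2, 1, 4 and 3. The probes ASCRPR000903 and ASCRPR013620, described below, gave the same order, so that it is not particular to the pair. How many of all circRNAs share it, or lie as close to each other in SUP, was not counted. Over the 8 rats SUP spanned 4.10 log2 for rno_circRNA_012088 and 3.84 log2 for rno_circRNA_012089. The difference between the pair within a rat spanned only 0.40 to 0.87 log2, with an SD of 0.15 where the SD of each over the 8 rats was 1.34 and 1.23. The latter SDs ranked 185 and 305 from the highest among 13347 circRNAs, whose median SD was 0.35. In IP, the difference between the pair ran from −1.03 to 0.62 log2, with an SD of 0.52, and the order of the rats differed. The order in IP was MT replicates 3, 1, 2 and 4 and NS replicates 3, 1, 2 and 4 for rno_circRNA_012088. For rno_circRNA_012089 it was MT replicates 1, 3, 2 and 4 and NS replicates 1, 2, 3 and 4. NS replicate 3 was thus the lowest rat in SUP for both circRNAs but the highest NS rat in IP for rno_circRNA_012088. The pair shares its arrays, so that the array's own brightness enters both values of a rat, and the difference between the groups for which both were chosen adds to the likeness.

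**Figure D4:**
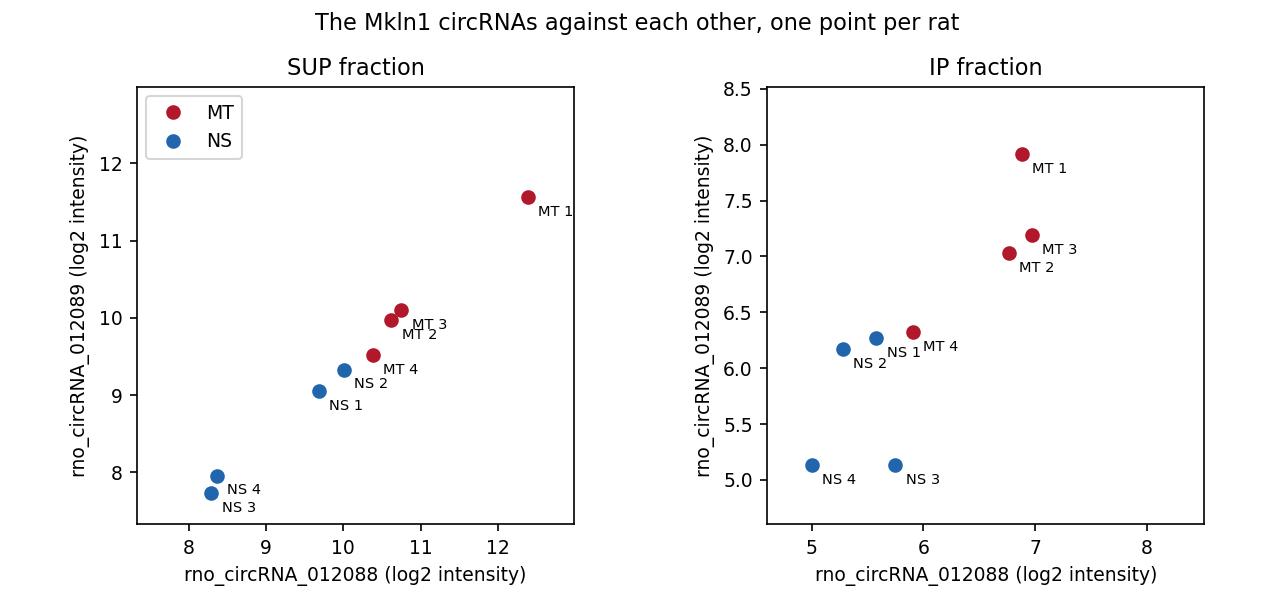
Normalized log2 intensity of rno_circRNA_012089 (y axis) against that of rno_circRNA_012088 (x axis) in SUP (left) and IP (right), with 1 point per rat. In SUP the 8 rats fall close to a line from NS replicate 3 to MT replicate 1, and in IP they scatter more, with NS replicate 3 off the line.

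Other circRNAs of the array were as much like the pair as its members were like each other. Over the 16 values of IP and SUP, each fraction centred on its mean, the correlation between rno_circRNA_012088 and rno_circRNA_012089 was 0.940. This is a description of 8 rats that share their arrays. Among the 11023 circRNAs well above background in both fractions on all 8 arrays, 11 had a higher correlation with rno_circRNA_012088 and 21 with rno_circRNA_012089, while the median circRNA had a correlation of 0.503 and 0.497. That median depended on the processing. With arrays centred on the median circRNA it was −0.299 and −0.294, where the pair correlated at 0.912. In the deposited values it was 0.059 and 0.134, where the pair correlated at 0.926. The circRNAs most like rno_circRNA_012088 were those of the probes ASCRPR000897, ASCRPR004117 and ASCRPR013620, with correlations of 0.961, 0.957 and 0.946. Those most like rno_circRNA_012089 were read by the probes ASCRPR000903, ASCRPR012696 and ASCRPR005859, with correlations of 0.965, 0.961 and 0.956. No host gene is given here for these probes.

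These 6 circRNAs had smaller differences between the groups than the Mkln1 circRNA they resembled. Their differences were between 0.30 and 0.94 log2 in IP and between 0.84 and 1.67 log2 in SUP. The nearest in size was ASCRPR000903, at 0.92 log2 in IP and 1.67 log2 in SUP. Their mean m6A levels ran from 4.41% to 23.3% over the MT rats and from 5.36% to 31.8% over the NS rats, and all 6 were lower in the MT group. ASCRPR012696 had the lowest, at 4.41% and 5.36%. With the IP values alone, the other Mkln1 circRNA fell to rank 161 for rno_circRNA_012088 and to rank 444 for rno_circRNA_012089, with a correlation of 0.848, and none of these 6 was among the 3 most alike.

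Across the ways of processing the arrays, both circRNAs stayed higher in the MT group in both fractions. Their differences in SUP exceeded those in IP under each of them, but the gap between them was small for rno_circRNA_012089 once the channels were brought to a common level. With quantile normalization within each channel, its difference was 1.36 log2 in IP and 1.41 log2 in SUP, and that of rno_circRNA_012088 was 1.11 and 1.62 log2.

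**Figure D5:**
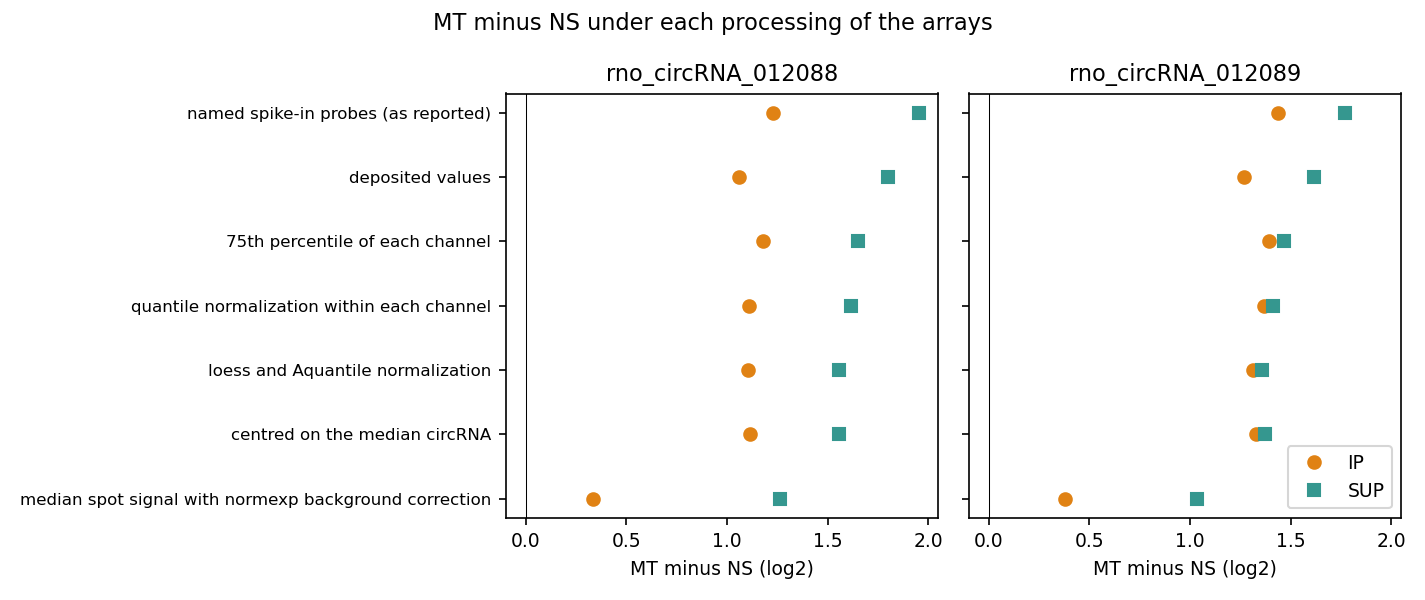
Difference between the MT and NS group means (x axis, log2) in IP (circles) and SUP (squares) for each Mkln1 circRNA under each way of processing the arrays (y axis). All values lie above 0, and the normexp correction gives the smallest IP differences, 0.33 log2 for rno_circRNA_012088 and 0.38 log2 for rno_circRNA_012089.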

How the data were processed

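The microarrays measured circRNAs in the lumbar spinal cords of 4 MT and 4 NS rats, each rat with its own array, IP in Cy5 and SUP in Cy3. The files the authors deposited are scanner output of Agilent Feature Extraction 11.0.1.1, whose processed intensity is background-subtracted and dye-normalized, and a value table on the log2 scale, which the authors scaled to spike-in RNA so that each channel of an array differs from its log2 processed signal by a single constant. The filter behind its 12893 circRNAs is not given in the sources used here.

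The members and lists were chosen with earlier results of these data known. Here each channel of an array was centred on the mean log2 signal of its 102 probes named as spike-ins, with a common constant added back, and spots marked as outliers were left out. The authors may have averaged other spike-ins. A feature entered where IP, SUP or both, as the measure needs, were well above background in 4 or more of 8 arrays. limma 3.58.1 in R 4.3.3 gave the mean and error of log2(IP/SUP) against the median circRNA and the share of all circRNAs past the criterion of the study, and was tested on simulated data. P-values planned for log2(IP/SUP) are not given, since the measure shares the IP values that chose the pair. Tables and figures used Python 3.11.15 and matplotlib 3.10.9. The circRNAs named beside the pair are the 3 with the highest Pearson correlation to each. The alternatives were the deposited values, the 75th percentile, quantile, loess and Aquantile or median normalization, normexp, outlier spots kept, other filters, a replicate block, an unmoderated test and leaving out each rat. The labels call the rats biological replicates, and their number limits the precision. A list of CTLH complex genes was planned but not used, since no table used here pairs probes with host genes. The authors also followed some circRNAs by PCR, with primers for rno_circRNA_012088 among those listed, and reported lower m6A levels in the MT group. Those PCR values were not analysed here.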

Additional observations from a re-analysis of the deposited data

How the results depend on the processing

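Differences between the MT and NS groups kept their direction for both circRNAs in IP, SUP, expression and level under every alternative. With normexp, rno_circRNA_012088 had differences of 0.33 log2 in IP, 1.27 log2 in SUP, 1.096 log2 in expression and −9.35 percentage points in level, and rno_circRNA_012089 had 0.38 log2 in IP, 1.03 log2 in SUP, 0.88 log2 in expression and −8.00 percentage points in level. With quantile normalization the level of rno_circRNA_012089 differed by −0.23 percentage points. The causes were not tested. Leaving out each rat gave, for rno_circRNA_012088 and rno_circRNA_012089 in turn, differences of 1.09 to 1.47 and 1.17 to 1.70 log2 in IP, 1.501 to 2.26 and 1.34 to 2.04 log2 in SUP, 1.46 to 2.18 and 1.32 to 1.99 log2 in expression, and −4.77 to −1.10 and −2.94 to −1.26 percentage points in level.

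The position of both circRNAs stayed below the median circRNA in all alternatives, at −1.63 and −1.11 log2 with normexp, and leaving out each rat gave −3.71 to −3.39 and −2.55 to −2.46 log2. The difference between the pair in log2(IP/SUP) was −0.52 with normexp and ranged from −1.19 to −0.92 without each rat. Rats of the same number did not deviate together in each case, with correlations of 0.459, −0.0189, −0.0114 and 0.432 for numbers 1 to 4, and 2 of the 4 MT rats correlated best with their own number. With a replicate block the differences between the groups were the same by construction, and so were the positions below the median circRNA and the difference between the pair of −1.04. Among the circRNAs most like each of the pair, the first 2 were the same when arrays were centred on the median circRNA and in the deposited values. The other Mkln1 circRNA then ranked 7 and 5 for rno_circRNA_012088 and 11 and 23 for rno_circRNA_012089. The dim IP spots limit the precision of the m6A quantity and level.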
